A study of Mus musculus with 1457 samples.

Results

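The 10 genes described here encode surface proteins by which blood cells and their precursors are recognised and sorted: Ptprc (CD45), Itga2b (CD41), Cd44, Spn (CD43), Procr (EPCR), Cd34, Ly6a (SCA-1), Thy1, Cd93 and Cd48. They were taken by gene symbol from the deposited count tables, where each has a row in both tables, and are 10 of the 36131 genes that both tables hold whole. Their transcripts were read in 1457 single cells, and the surface gate of each sort gives a second view of CD41 and CD45 in the same cells.

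ICR mouse embryos of E10.5 and E11.5 gave the cells, by dissection of the aorta-gonad-mesonephros (AGM), where hemogenic endothelium in the aortic wall turns into blood cells. Smart-seq2, a method that makes cDNA over the length of polyadenylated transcripts, was applied to cells sorted into wells. No label names an embryo or says how many were used, so the cells of a group are not replicates, and each of the 19 groups gave a single sum of reads. Levels are reads of a gene per 1000000 reads of that sum (CPM).

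Every sort excluded cells with TER119, a red cell antigen, or CD45 on the surface. Endothelial cells (Endo) had CDH5, the endothelial cadherin, and lacked CD41, KIT and reporter fluorescence. Hemogenic endothelium (HE) came from that gate with a GFI1 or a RUNX1b reporter switched on. Cells in endothelial-to-hematopoietic transition (EHT) carried CDH5, CD41, KIT and the GFI1 reporter without that of GFI1b, and cells of the intra-aortic hematopoietic clusters (IAHC) carried the GFI1b reporter as well. RUNX1b-positive mesenchymal cells (Mes) lacked CDH5, CD41 and KIT. The Gfi1:Tomato/WT Gfi1b:GFP/WT line, called heterozygous here, supplied at E10.5 the cells of all 4 gates, 74 Endo cells, 95 HE cells, 41 EHT cells and 42 IAHC cells, and at E11.5 it supplied 16 Endo cells, 40 HE cells and 22 IAHC cells. A further 41 Endo, 43 HE and 42 EHT cells of that line were titled E11.5 while their stage field said E10.5, and they are kept apart as the set whose stage labels differ. The homozygous genotype Gfi1:Tomato/Tomato Gfi1b:GFP/GFP supplied 42 HE cells of E10.5. From Runx1b:RFP/WT embryos of E10.5 came 53 Endo cells, the HE cells (17.98% of all cells) and the Mes cells (7.34%) called heterozygous, and from Runx1b:RFP/RFP embryos 91 Mes cells. A second set of HE cells of the Runx1b line (19.01% of all cells) has KO in its titles but Runx1b:RFP/WT as its genotype, and is called titled KO. Sorts by angiotensin-converting enzyme (ACE) from Gfi1:Tomato/WT embryos at E10.5 gave 14 ACE- GFI1- cells, 39 ACE+ GFI1+ cells and the ACE+ GFI1- cells (7.96% of all cells), all CDH5+ and without CD41 or KIT. Reporter alleles are carried in all groups, the controls included, and no group without a reporter allele was analysed here.

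CD41 is the alpha IIb chain of a platelet integrin and appears on emerging blood cells in the embryo before CD45, the receptor phosphatase that marks nearly all later white blood cells. CD43 is a sialomucin of blood cells, and CD44 binds hyaluronan. CD34 and CD93 are shared by endothelium and blood progenitors, and EPCR, the endothelial receptor for protein C, also marks blood stem cells. SCA-1, THY1 and CD48, an immunoglobulin-family ligand of CD244, are used on adult bone marrow to separate stem cells from their progeny.

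The promoters of the 2 gated genes and of the 2 genes called between Endo and HE are shown because their transcripts carry the results below. They run from 250 bases before to 50 bases after the start of the gene, 5' to 3' on the gene's strand, from RefSeq on GRCm38.p6. Capitals mark matches, on either strand, to AGGAAG (the core of many ETS sites, CTTCCT on the other strand), AGATAA, which is the site of GATA factors, or TGTGGT, the site of RUNX factors, which do not overlap each other here. The windows are chr1:138175256-138175555 for Ptprc (minus strand), chr11:102469834-102470133 for Itga2b (minus strand), chr2:102901616-102901915 for Cd44 (minus strand) and chr2:155750967-155751266 for Procr (plus strand).
Ptprc: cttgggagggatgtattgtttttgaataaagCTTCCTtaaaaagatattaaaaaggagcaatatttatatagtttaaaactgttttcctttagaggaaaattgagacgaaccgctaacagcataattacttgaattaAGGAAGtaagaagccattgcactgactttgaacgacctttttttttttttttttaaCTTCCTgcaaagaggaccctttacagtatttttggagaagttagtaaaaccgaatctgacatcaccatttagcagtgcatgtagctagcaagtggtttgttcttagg
Itga2b: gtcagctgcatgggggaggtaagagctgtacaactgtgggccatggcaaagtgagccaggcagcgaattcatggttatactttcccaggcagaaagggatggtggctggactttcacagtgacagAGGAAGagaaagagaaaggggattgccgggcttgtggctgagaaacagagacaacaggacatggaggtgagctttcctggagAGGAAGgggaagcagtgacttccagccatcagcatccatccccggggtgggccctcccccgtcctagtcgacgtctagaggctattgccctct
Cd44: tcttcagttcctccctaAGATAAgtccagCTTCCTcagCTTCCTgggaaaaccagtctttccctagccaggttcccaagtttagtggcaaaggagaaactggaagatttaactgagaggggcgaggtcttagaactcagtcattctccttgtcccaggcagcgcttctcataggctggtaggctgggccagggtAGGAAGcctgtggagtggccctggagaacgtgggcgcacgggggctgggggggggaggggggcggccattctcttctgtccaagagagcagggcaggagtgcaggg
Procr: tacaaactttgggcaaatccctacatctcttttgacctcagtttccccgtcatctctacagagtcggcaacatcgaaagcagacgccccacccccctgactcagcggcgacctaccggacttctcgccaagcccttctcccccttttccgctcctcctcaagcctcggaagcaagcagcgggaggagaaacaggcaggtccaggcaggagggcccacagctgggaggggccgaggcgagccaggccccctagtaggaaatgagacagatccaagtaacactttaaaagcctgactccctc
AGGAAG was found 3 times in the Ptprc window, 2 times in that of Itga2b and 3 times in that of Cd44, which also held 1 AGATAA, while the Procr window held none of the 3 motifs. Of 32851 mouse promoters of this length in the same source, 35.4% held AGGAAG, 11.2% AGATAA and 16.8% TGTGGT. A match is only a run of letters. Entries were found for 7 members, those of Ptprc for 2 starts of which 1 is shown, and Ly6a, Thy1 and Cd93 had none. The Ptprc window that is not shown (chr1:138175077-138175376) held 1 AGGAAG and 1 AGATAA, so the counts depend on the start.

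Reads per cell ran from 12 to 5652968 with a median of 598000, and 51 cells had under 100000 reads. Endothelial character followed the gates, since at least 82.1% of the cells of each CDH5+ group had reads of 10 or more of 20 endothelial markers, except ACE+ GFI1- (78.4%), Runx1b HE (50%) and E11.5 IAHC (40.9%). In E11.5 IAHC, 14 of 22 cells had 28.3% to 81.8% of their reads in globin genes. Runx1b HE held 31 and E10.5 HE 16 cells with at least 1% globin reads. Runx1, the gene behind the RUNX1b reporter, was at 17.8 CPM in Runx1b HE (69 cells) and at 1.47 CPM in titled KO HE (19 cells). Gfi1 reads were found in the homozygous Gfi1/Gfi1b HE (218.9 CPM, 37 of 42 cells) as in heterozygous HE (55.2 CPM, 38 of 95 cells), and the counts do not show which exons they came from, so they check nothing about the allele.

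Ptprc transcripts were read mostly in the gates that took CD41-positive cells, although all sorts had excluded CD45 protein. Of the 87 cells with a Ptprc read, 68 were in CD41+ gates and 19 in CD41- gates (1.45% of the 1310 cells there, exact 95% interval 0.875 to 2.26), 13 of these being heterozygous Mes cells. At least 1 Ptprc read was found in 68 cells of the CD41+ gates and not in the other 79 (46.3%, exact 95% interval 38 to 54.7) and in 6 of the 1112 cells of the CD41- CDH5+ gates (0.540%, 0.198 to 1.17), which leaves out Mes. Of those 6 cells, 2 were of homozygous Gfi1/Gfi1b HE, and 1 each of E10.5 HE, E11.5 HE, Runx1b HE (1 read) and titled KO HE (2 reads). The 4 Endo sums and the 3 ACE sums all stood at 0, and 0 of 74 E10.5 Endo cells allows a share of up to 4.05%. Intervals cover counting error only, since reads without molecular identifiers include PCR copies.

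Among the CD41+ groups the share of cells with Ptprc differed widely. E10.5 EHT had Ptprc reads in 8 of 41 cells (19.5%, 8.82 to 34.9) at 27.7 CPM, and E10.5 IAHC in 24 of 42 cells (57.1%, 41 to 72.3) at 85.4 CPM. The EHT set whose stage labels differ had them in 31 of 42 cells (73.8%, 58 to 86.1) at 173.6 CPM, and E11.5 IAHC in 5 of 22 cells (22.7%, 7.82 to 45.4) at 93.4 CPM. Each group is 1 sum of cells that are not replicates, so these shares describe the sorted cells and the groups were not tested against each other. With every cell thinned to 100000 reads the shares were 19.5%, 50%, 71.4% and 22.7%, so the order was kept at equal depth. Among cells with a read, the median level was 66.2 CPM in E10.5 EHT and 67.5 CPM in E10.5 IAHC. It was 207.7 CPM in the other EHT group.

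**Figure D1:**
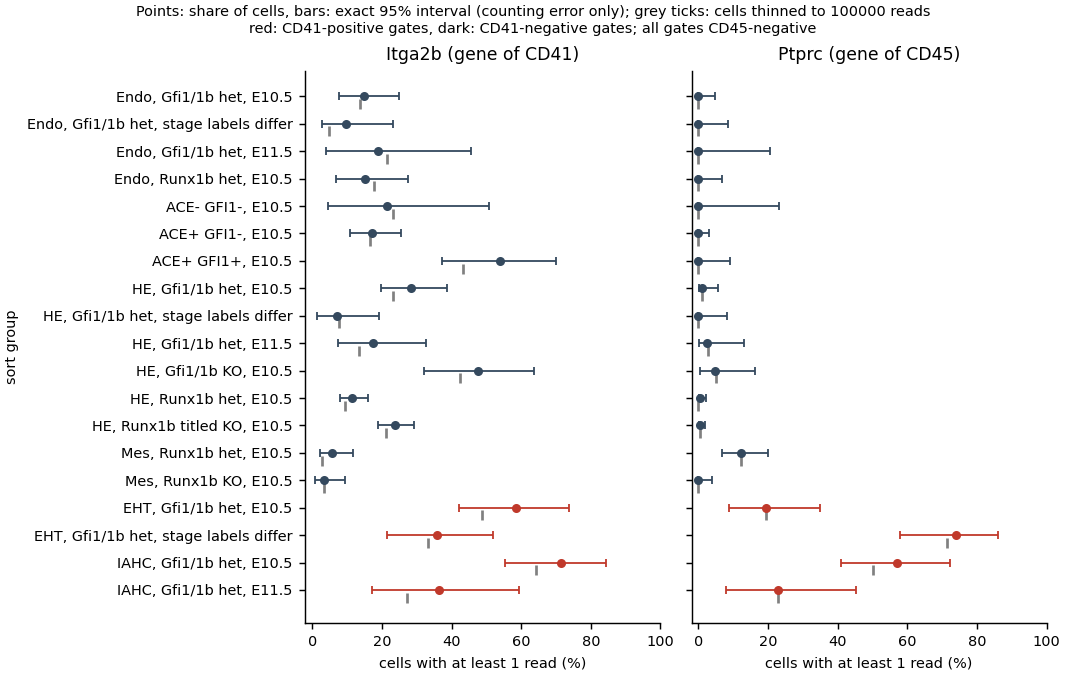
Percent of cells with at least 1 read of Itga2b (left) and Ptprc (right) in each of the 19 sort groups, with bars for the exact 95% interval, red points for CD41-positive gates, dark points for CD41-negative gates, and grey ticks for cells thinned to 100000 reads. Itga2b was read on both sides of the CD41 gate, from 3.30% to 71.4% of cells, while Ptprc passed 5% of cells only in the CD41-positive groups and in heterozygous Mes (12.1%).

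Heterozygous Mes was the only CD41- group with Ptprc in more than 2 cells, and the cells that had it differed from the others there. In heterozygous Mes, Ptprc was read in 13 cells (12.1%, 6.63 to 19.9), summing to 48.3 CPM. Each of those 13 cells also had reads of 11 or 12 of the 12 macrophage markers (Csf1r, Adgre1, C1qa and others), while the 94 cells without Ptprc had at most 2. Within the 13 cells Ptprc reached 427.8 CPM, and Cd48 was read in 7 of them at 54.5 CPM. The other 94 cells had no read of either gene. Cd44 was read in all 13 (325.7 CPM) and in 29 of the other 94 (43.7 CPM), and Procr in 0 of the 13.

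**Figure D2:**
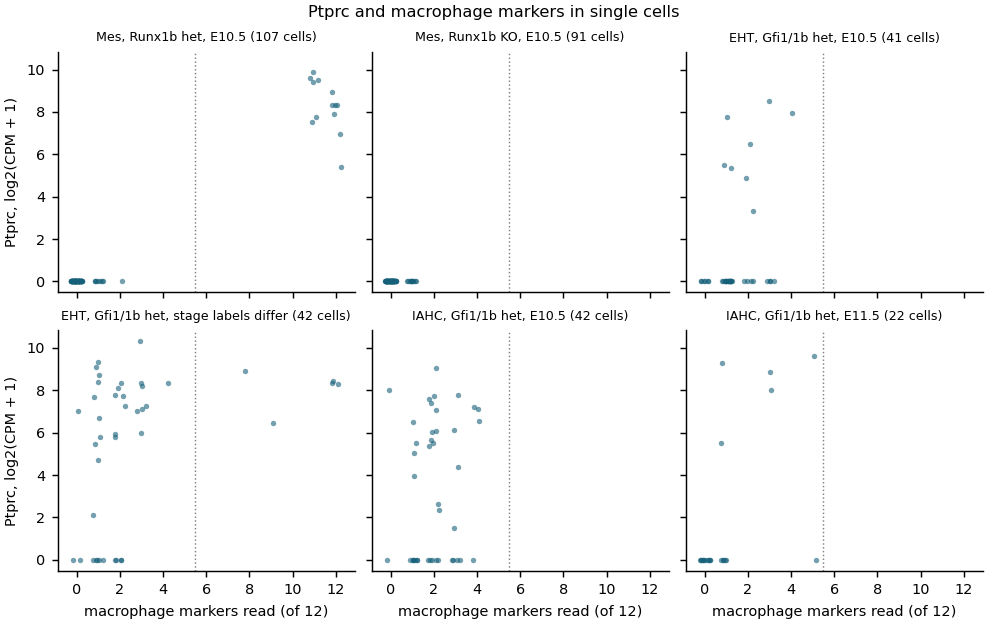
Number of the 12 macrophage markers with a read in each cell (x axis) against the cell's Ptprc level as log2(CPM + 1) (y axis) in both Mes groups, both EHT groups and both IAHC groups, 1 point a cell, with a dotted line between 5 and 6 markers. In heterozygous Mes all 13 cells with Ptprc lie at 11 or 12 markers, and in E10.5 EHT and both IAHC groups no cell has 6 or more.

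The same markers were checked in the CD41+ gates. No cell of E10.5 EHT, E10.5 IAHC or E11.5 IAHC had reads of 6 or more of them, and C1qa, C1qb, C1qc and Adgre1 were at 0 in these 3 sums, whose 12 markers together came to 186.2, 233.4 and 156.9 CPM. In the EHT set whose stage labels differ, the 12 markers summed to 1095 CPM and 5 of 42 cells had at least 6 of them. All 5 had Ptprc reads (303.3 CPM, 23.7% of the group's Ptprc reads), and both of its Cd48-positive cells were among them. In the other 37 cells Ptprc was still read in 26 (70.3%) at 153.3 CPM, and Cd48 in none.

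Itga2b was read on both sides of its own gate, while for Ptprc every sort lay on the CD45-negative side. It was found in 77 CD41+ cells (52.4%, 44 to 60.7), and the other 70 cells sorted for surface CD41 had no Itga2b read. It was also found in 20.1% of the 1112 CD41- CDH5+ cells (17.7 to 22.5), with 889 lacking it, and in every CD41- group at between 3.30% and 53.8% of the cells. In all CD41- gates together 1078 of 1310 cells had no read and 17.7% had one (15.7 to 19.9). A read in a cell without surface CD41 compares RNA with protein. Neither the protein level nor the sort purity can be measured from these counts. Some of these cells had 6 or more of 11 erythroid markers. Among cells with Itga2b they were 9 of 27 in E10.5 HE (8 of 68 without Itga2b) and 10 of 30 in Runx1b HE. In homozygous Gfi1/Gfi1b HE they were 3 of 20, in titled KO HE 1 of 66 and in ACE+ GFI1+ 0 of 21. In cells with 10 or more endothelial markers, Itga2b was read in 23.1% of E10.5 HE (11.6 CPM) and 12.2% of Runx1b HE (5.96 CPM).

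By group, the CD41+ sorts stood at 58.5% of cells in E10.5 EHT (38.4 CPM), 71.4% in E10.5 IAHC (54.1 CPM), 35.7% in the EHT set whose stage labels differ (15.9 CPM) and 36.4% in E11.5 IAHC (104.2 CPM). The highest CD41- groups overlapped them, with 53.8% of ACE+ GFI1+ cells (27.7 CPM) and 47.6% of homozygous Gfi1/Gfi1b HE cells (30.2 CPM). Below them were E10.5 HE with 28.4% (14.4 CPM), titled KO HE with 23.8% (12.4 CPM) and E10.5 Endo with 14.9% (5.35 CPM). The 2 Mes groups were lowest, at 5.61% and 3.30% of cells. Thinned to 100000 reads, ACE+ GFI1+ cells still stood at 43.2%, E10.5 EHT at 48.8% and E10.5 IAHC at 64.3%.

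Level as well as detection overlapped between the gates. The 24 E10.5 EHT cells with an Itga2b read had a median of 44.2 CPM. That level was reached by 13 of 95 E10.5 HE cells (13.7%), 11 of 39 ACE+ GFI1+ cells, 9 of 42 homozygous Gfi1/Gfi1b HE cells and 2 of 74 E10.5 Endo cells. Cells of CD41- and CD41+ gates thus overlapped in level as in detection.

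The highest Itga2b sum came from a single cell. In E11.5 IAHC 1 of 22 cells had 2213 CPM of Itga2b, 85.4% of the group's reads of the gene, with all 12 megakaryocyte markers (Pf4 at 30004 CPM and Ppbp at 12704 CPM) and no Ptprc read. In Runx1b HE 1 cell had 3069 CPM, 57.9% of that group's Itga2b reads, with 1 of 20 endothelial markers, 6 of 11 erythroid and 6 of 12 macrophage markers and no Pf4 read. Without the highest cell of each group Itga2b was 1.45 log2 units lower (log2 ratio -1.45) in E11.5 than in E10.5 IAHC, and with it 0.95 higher.

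**Figure D3:**
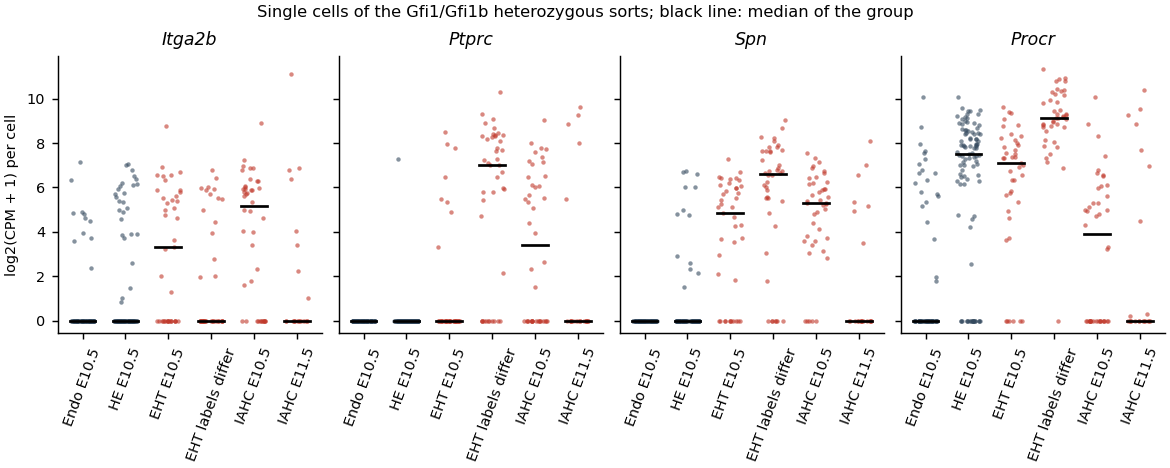
Level per cell of Itga2b, Ptprc, Spn and Procr as log2(CPM + 1) in E10.5 Endo, HE, EHT and IAHC, in the EHT set whose stage labels differ and in E11.5 IAHC, 1 point a cell and a black line at the median. Itga2b points are spread over CD41-negative and CD41-positive gates, Ptprc points above 0 lie in EHT and IAHC but for 1 HE cell, and Spn is at 0 in all 74 Endo cells.

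The gates were also seen from the other genes that defined them. Kit, absent from the surface of HE and Endo by the gate, was read in 37 of 74 E10.5 Endo cells and 55 of 95 E10.5 HE cells at 86.1 and 112.1 CPM, against all 41 E10.5 EHT cells at 607.2 CPM. Gfi1b was read in 18 of 41 E10.5 EHT cells, whose gate excluded the GFI1b reporter, and in 39 of 42 IAHC cells.

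HE was compared with Endo over 4 sort sets (the heterozygous Gfi1/Gfi1b line at E10.5 and at E11.5, the Runx1b line and the ACE sorts), each giving 1 Endo and 1 HE sum, to ask which members differ between the gates. In the ACE set the Endo sum is ACE- GFI1- and the HE sum ACE+ GFI1+, so ACE differs there together with the reporter, and the ACE+ GFI1- cells, which carry no GFI1 reporter signal, are on neither side. Cd44 and Procr, the receptors for hyaluronan and protein C, rose, and no member fell. Of the 10 members 7 passed the filter on low counts, and 2 of these 7 were called higher, where 0.886% of all 14553 genes tested were called higher and 0.515% lower. Ptprc, Thy1 and Cd48 were too low in these 8 sums to be tested.

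Cd44 stood at 23.8, 5.99, 4.51 and 9.47 CPM in the Endo sums of the E10.5, E11.5, Runx1b and ACE sets, and at 135.1, 194.1, 91.8 and 329.0 CPM in their HE sums. The 4 HE sums lay above the 4 Endo sums. The ACE+ GFI1- sum left out of the fit had 206.4 CPM, above 3 of the 4 HE sums. The log2 difference was 4.35 ± 0.49 (SE), with an adjusted p of 0.0244 by edgeR's quasi-likelihood test, and from 6.71e-23 to 0.171 over 13 alternatives, 10 of which made the call. It was lost without the ACE set (0.171), the E11.5 set (0.0518) or the Runx1b set (0.137), each of which leaves 3 pairs.

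Procr stood at 44.7, 87.2, 35.3 and 27.4 CPM in the Endo sums and at 208.1, 876.2, 122.99 and 529.1 CPM in the HE sums of the same sets, and these 8 sums did not overlap. The ACE+ GFI1- sum had 233.3 CPM, above 2 of the 4 HE sums. Its log2 difference was 2.97 ± 0.42, with an adjusted p of 0.0442 by the same edgeR test, and from 8.12e-14 to 0.145 over 13 alternatives, 8 of which made the call. Leaving out any of the 4 sets lost it (0.0885 to 0.145), as did testing without the filter on low counts. The set whose stage labels differ, which was not in the fit, had Cd44 at 43.6 CPM in Endo and 104.7 CPM in HE, and Procr at 225.6 and 612.1 CPM.

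Counts of positive cells moved with the sums. Cd44 was read in 16 of 74 E10.5 Endo cells (21.6%) and 72 of 95 E10.5 HE cells (75.8%), and Procr in 28.4% and 80%. Both genes met in the same cells, since 71 of the 72 HE cells with Cd44 also had Procr, against 5 of the 23 without Cd44. The other 18 cells had neither gene. This group also held 17 cells with 6 or more of 11 erythroid markers, and 78 of its 95 cells had 10 or more endothelial markers. The part of these differences in makeup in the overlap of Cd44 and Procr was not tested. In E10.5 Endo the overlap was smaller, with 4 of 16 Cd44 cells and 17 of the other 58 having Procr. In Runx1b HE the 50% of cells with 10 or more endothelial markers held all Procr reads (263.7 CPM, in 83.97% of these cells) and 79.3% of the Cd44 reads, while 0% of the other cells had Procr.

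**Figure D4:**
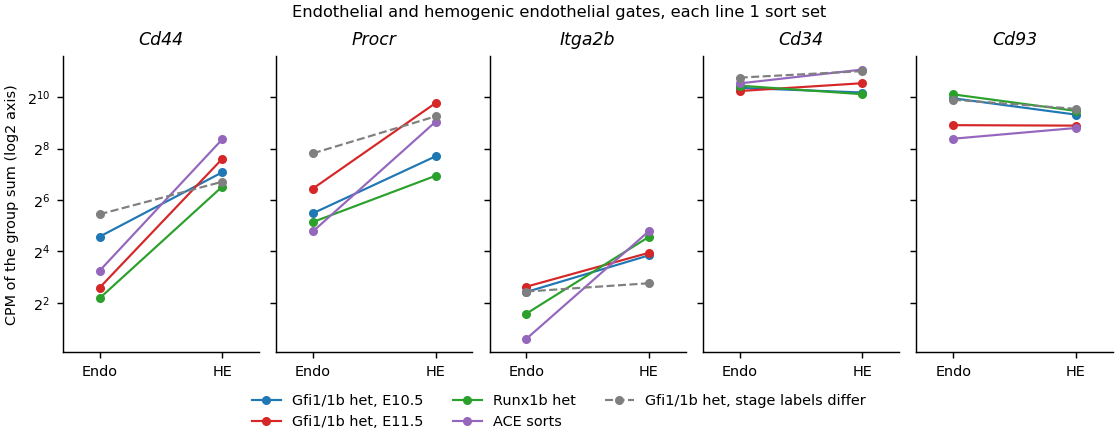
CPM (log2 axis) of Cd44, Procr, Itga2b, Cd34 and Cd93 in the Endo sum and the HE sum of each sort set, with solid lines for the 4 fitted sets and a dashed line for the set whose stage labels differ. For Cd44 and Procr all lines go up from Endo to HE, while Cd34 lies between 1112 and 2164 CPM in all sums of the fitted sets.

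Globin reads moved with the same contrast, as 5 of 6 tested erythroid markers rose and together with the rest of their list came to 146000 CPM in E10.5 HE and 48 CPM in E10.5 Endo. Without the cells at or above 1% globin, Cd44 stood 4.37 ± 0.46 and Procr 3.0 ± 0.40 log2 units higher in HE (edgeR adjusted p 0.0235 and 0.0363). In cells with 10 or more endothelial markers the differences were 4.52 ± 0.47 and 3.23 ± 0.30 (adjusted p 0.0145 and 0.0124, edgeR). Macrophage markers were low on both sides, at 1.05 to 31.3 CPM in the 4 Endo sums and 18.7 to 62.8 CPM in the 4 HE sums, and none of the 3 that could be tested was called. Mesenchyme markers moved with the contrast too, with all 6 tested at a positive log2 difference and 1 called, the transcription factor gene Prrx1. The 12 genes of that list summed to 0.311 to 20.4 CPM in the 4 Endo sums and to 154.02 to 10746 CPM in the 4 HE sums, highest in Runx1b HE, and their part in the result was not tested beyond the values in cells with 10 or more endothelial markers.

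The other tested members did not pass. Itga2b was higher in HE in all 4 sets, with a log2 difference of 2.53 ± 0.69 and an adjusted p of 0.136 in edgeR (0.000869 to 0.357 over 13 alternatives, called only by DESeq2). Spn had 7.81 ± 2.87 (adjusted p 0.223 in edgeR, 4.09e-05 to 0.502 over 12 alternatives, called by DESeq2 alone), with 0, 0.0222, 4.07 and 0 CPM in Endo and 5.05, 30.3, 3.66 and 1.3 CPM in HE, so that the Runx1b set ran the other way. Ly6a had 5.45 ± 2.89 (edgeR adjusted p 0.382, 0.288 to 0.708 over 10 alternatives), with 0, 0.0444, 1.08 and 0 CPM in Endo and 2.71, 4.49, 0.934 and 0 CPM in HE. Cd34 and Cd93 had 0.16 ± 0.16 and -0.14 ± 0.19 (adjusted p 0.642 and 0.730 by edgeR) and are high in both gates: Cd34 lay between 1212 and 1489 CPM in Endo and between 1112 and 2164 CPM in HE.

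Few of the genes that act with the members passed the test. Of 11 tested genes around CD45 signalling 1 was lower in HE, Lyn, a Src-family kinase (-1.51 ± 0.21, edgeR adjusted p 0.0436). Of 9 tested platelet-integrin partners of CD41 1 was higher, Vwf, the von Willebrand factor (3.48 ± 0.42, adjusted p 0.0334). Among 5 tested sialomucin relatives of CD43 and CD34, Emcn (endomucin) fell (-1.09 ± 0.14, adjusted p 0.0366), and among 24 other surface markers the tetraspanin Cd63 rose (2.01 ± 0.18, adjusted p 0.0175). None of the 8 tested CD44 partners, 6 genes of the protein C pathway or 7 of the Ly6 family was called, and no SLAM family gene could be tested.

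In the heterozygous Gfi1/Gfi1b line the path from Endo to HE, EHT and IAHC was fitted over 10 sums in 3 sort sets, to ask which members change from gate to gate. edgeR's quasi-likelihood test called no member and no other gene, 0% of 17041 higher and 0% lower, in each of the 3 steps. At an unadjusted p under 0.05 it had 1480 genes for HE against Endo, 1459 for EHT against HE and 526 for IAHC against EHT, and DESeq2 called 7.55%, 6.58% and 3.84% of the genes. Of the members DESeq2 called Ptprc, Cd44, Spn, Procr and Ly6a higher in HE than in Endo, Cd34 and Cd93 lower in EHT than in HE, and none between IAHC and EHT. Its Ptprc and Ly6a calls rest on few HE cells. Ptprc was read in 1 of 95 at E10.5, 1 of 40 at E11.5 and 0 of 43 in the set whose stage labels differ. Ly6a was read in 2, 3 and 0 of the same cells. EHT and IAHC were both present in the E10.5 set only.

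From HE to EHT Ptprc and Spn were higher and Cd34 and Cd93 lower in both sets that hold these gates. Ptprc stood at 1.80 CPM in E10.5 HE and 27.7 CPM in E10.5 EHT, and at 0 and 173.6 CPM in the set whose stage labels differ (log2 difference 6.57 ± 2.19, edgeR adjusted p 0.541). Spn stood at 5.05 and 36.7 CPM, and at 11.4 and 127.5 CPM. Cd93 was lower in EHT by the fit (-1.58 ± 0.36, edgeR adjusted p 0.274, 0.000878 to 1 over the alternatives), at 641.4 and 216.3 CPM and at 749.9 and 310.5 CPM, and so was Cd34 (-1.09 ± 0.25, edgeR adjusted p 0.275). Of 11 alternatives DESeq2 was the only 1 to call either. The list of 20 endothelial markers went the same way, with a median log2 difference of -1.29 against -0.05 over all genes tested, 1 of 20 above 0, and sums of 8421 and 4075 CPM in E10.5 HE and EHT and of 14071 and 5404 CPM in the other set. None of the 20 was called by edgeR, and their part in the Cd34 and Cd93 values was not tested. Itga2b had 14.4 and 38.4 CPM, and 6.77 and 15.9 CPM (1.24 ± 0.59, edgeR adjusted p 0.649).

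Spn, the sialomucin CD43, was read in few cells of the CD41- gates and most cells of the CD41+ gates at E10.5. It was read in 0 of 74 E10.5 Endo cells, 13 of 95 E10.5 HE cells (13.7%), 30 of 41 E10.5 EHT cells (73.2%) and 37 of 42 E10.5 IAHC cells (88.1%). In E11.5 HE and in the EHT set whose stage labels differ it was read in 22.5% and 83.3% of cells. In E11.5 IAHC it was read in 31.8%, the 14 globin-rich cells having none.

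IAHC at E10.5 had less Procr than HE and EHT. In these gates the Procr sums were 208.1, 192.8 and 77.5 CPM in the order HE, EHT, IAHC, and it was read in 80%, 85.4% and 54.8% of cells. The fitted difference between IAHC and EHT was -1.17 ± 0.44 with an edgeR adjusted p of 1 (0.202 to 1 over 11 alternatives), so it was not called. Only the E10.5 set holds both gates. The fit also draws on the E11.5 IAHC sum with its globin-rich cells and on the other EHT sum, so it does not show whether the difference recurs between sets. Cd44 was read in all 41 EHT and all 42 IAHC cells, at 206.1 and 170.5 CPM. Per kilobase of exon, the E10.5 EHT levels ran from Cd34 (125.9 CPM per kb) and Procr (94.9) through Cd93 (32.4) and Cd44 (30.4) to Spn (7.83), Itga2b (7.04) and Ptprc (1.51). The length joins the exons of all annotated transcripts of a gene, 18.3 kb for Ptprc and 2.03 kb for Procr. These values therefore do not rank the transcripts by abundance.

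**Figure D5:**
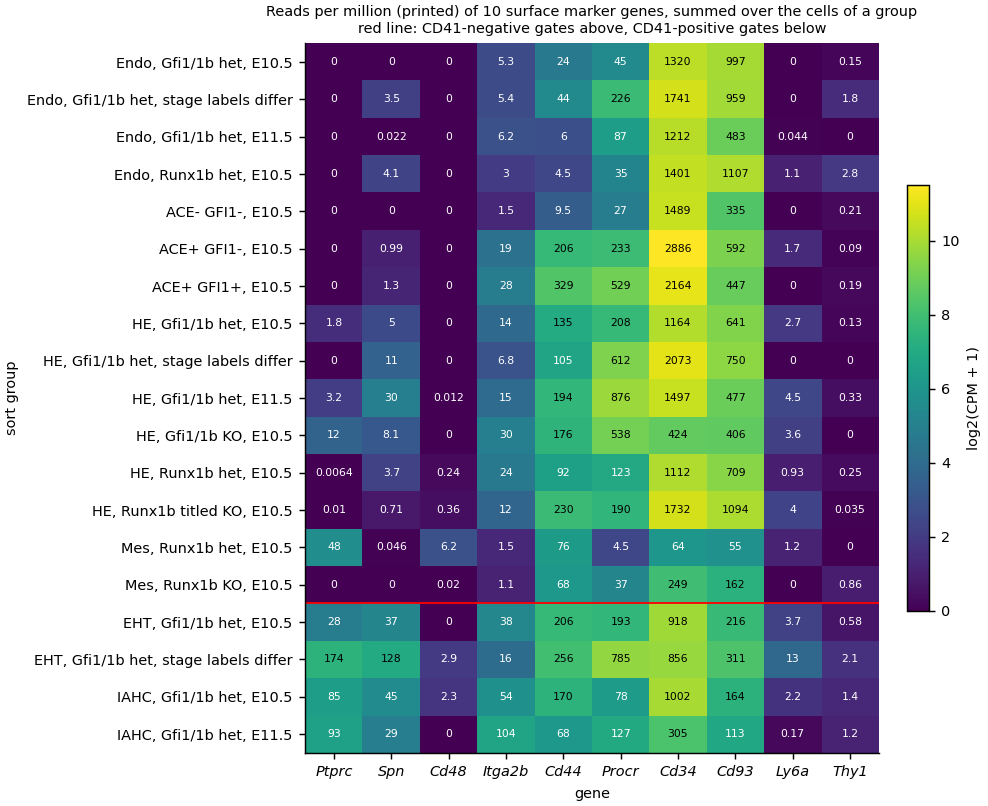
Level of each of the 10 members in the 19 sort groups, with the CPM of each sum printed in its cell, colour for log2(CPM + 1), and a red line between CD41-negative gates (above) and CD41-positive gates (below). Cd44 and Procr stand higher in HE than in the Endo sum of the same set, and Ptprc is highest at 173.6 CPM in the EHT set whose stage labels differ.

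Within single cells the CD41+ gates combined several members. The median number of members read per cell was 2 in E10.5 Endo, 4 in E10.5 HE, and 6 in E10.5 EHT and E10.5 IAHC. Cells with reads of at least 5 members made up 0% of E10.5 Endo, 27.4% of E10.5 HE, 82.9% of E10.5 EHT and 88.1% of E10.5 IAHC, and 24.2%, 78% and 78.6% of the last 3 after thinning. Of the 24 E10.5 IAHC cells with Ptprc, 17 had Itga2b, as did 13 of the 18 without Ptprc, so the reads of the 2 gated genes fell in the same and in different cells alike. Spn was read in 21 of those 24 and in 16 of the 18. In E10.5 EHT 3 of the 8 cells with Ptprc had Itga2b, against 21 of the 33 without.

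Ly6a, Thy1 and Cd48, the markers taken from adult stem cell sorting, were low in all sums, at no more than 13.5 CPM. Ly6a was highest in the EHT set whose stage labels differ (10 of 42 cells), Thy1 at 2.81 CPM in Runx1b Endo (5 of 53 cells), and Cd48 at 6.16 CPM in heterozygous Mes. Over all 1457 cells they were read in 50, 32 and 18 cells. Ly6a has close relatives in the Ly6 cluster, so reads that fit several of them may have been dropped or shared, and its values are uncertain. Cd34 shares exon bases with Gm16897 on the other strand, and the strand setting is not given in the sources used here.

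The remaining comparisons set 1 sum against 1 and have no replicate check and no test. A member is counted where the sums differ at least 2-fold and the higher reaches 5 CPM, and the intervals in brackets are exact 95% intervals of the log2 ratio for counting error only. Shares of all genes are of those that reach 5 CPM in the higher sum. Members under 5 CPM in both sums cannot count, even where their ratio is larger.

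Homozygous Gfi1/Gfi1b HE differed from heterozygous HE at E10.5 in 4 of the 10 members, with 17.1% of 10839 genes this far apart. Ly6a, Thy1 and Cd48 were under 5 CPM in both sums and could not count. Procr was higher (538.2 against 208.1 CPM, log2 ratio 1.37 [1.33 to 1.41]) and Cd34 lower (423.7 against 1164 CPM, -1.46 [-1.49 to -1.42]). Itga2b was higher (30.2 against 14.4 CPM, 1.07 [0.91 to 1.22]), but at 1.0 without the highest cell of each group it was just short of 2-fold. Ptprc was higher (11.7 against 1.80 CPM), with 89.5% of its reads from 1 of 42 cells, and does not count without that cell.

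In titled KO HE of the Runx1b line Cd44 was the only member that counted as 2-fold from heterozygous HE (229.5 against 91.8 CPM, 1.32 [1.3 to 1.35]), with 15.8% of 11400 genes this far apart. Spn, Ly6a and Thy1 were more than 2-fold apart but under 5 CPM in both sums. The 2 groups differ in makeup, since 97.8% and 50% of their cells had 10 or more endothelial markers. Among cells with 10 or more endothelial markers in both groups the Cd44 log2 ratio was 0.58 (232.6 against 156.03 CPM), so Cd44 was no longer 2-fold apart. Itga2b was 2-fold apart in these cells (12.5 against 5.96 CPM, 1.07). Over all cells its ratio was -0.93, and 0.12 without the highest cell of each group.

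Homozygous Runx1b Mes differed from heterozygous Mes in 5 members, with 15.4% of 11906 genes this far apart. Itga2b, Spn, Ly6a and Thy1 were under 5 CPM in both sums and could not count. Ptprc had 0 reads in 91 cells (a share of up to 3.30%) against 48.3 CPM, at least 820.3-fold lower, and Cd48 had 1 read against 6.16 CPM (-6.71 [-8.99 to -5.15]). Both were read in heterozygous Mes only in the 13 cells with macrophage markers, whose 12 genes summed to 711.4 CPM there and 4.44 CPM in homozygous Mes with C1qa, C1qb, C1qc and Adgre1 at 0. Procr (36.7 against 4.46 CPM, 3.04), Cd34 (248.6 against 64.3 CPM, 1.95) and Cd93 (161.7 against 55.1 CPM, 1.55) were higher in the homozygous sum. They moved with endothelial markers, which summed to 2946 CPM in homozygous and 774.6 CPM in heterozygous Mes, with 13 cells (14.3%) and 5 cells (4.67%) having 10 or more, and the part of these cells in the result was not tested.

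Between stages, E11.5 HE had more Spn (30.3 against 5.05 CPM, 2.58 [2.42 to 2.75]) and Procr (876.2 against 208.1 CPM, 2.07 [2.05 to 2.10]) than E10.5 HE, with 31.9% of 11165 genes this far apart. These were the 2 members that counted, and Ptprc, Ly6a, Thy1 and Cd48 were under 5 CPM in both sums. In IAHC 62.5% of 10712 genes were 2-fold apart between the stages. Of the members that reached 5 CPM, Cd44 (68.2 against 170.5 CPM, -1.32) and Cd34 (304.6 against 1002 CPM, -1.72) were 2-fold lower at E11.5. The 14 globin-rich cells of that sum held 67.8% of its reads and none of Ptprc, Cd44, Spn, Thy1 or Cd48. In its other 8 cells Cd44 was read in all 8 (211.6 CPM), Ptprc in 5 (289.5 CPM), Spn in 7 (90.4 CPM) and Cd34 in all 8 (833.7 CPM), so that Cd44 stood 0.31 log2 units above E10.5 IAHC when cells at or above 1% globin were left out of both groups. In that comparison no member counted as 2-fold lower at E11.5, and Ptprc (1.76), Itga2b (2.43) and Procr (2.33) counted as 2-fold higher. The Itga2b value there includes the single cell at 2213 CPM. The median of the 8 cells was 2.37 CPM of Itga2b, against 291.1 CPM in their sum.

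In the ACE sorts, Itga2b, Cd44, Procr, Cd34 and Cd93 reached 5 CPM in the higher of the ACE+ GFI1- and ACE- GFI1- sums. Of these members 3 were 2-fold apart, beside 33.4% of 11062 genes. From ACE- GFI1- to ACE+ GFI1- cells Itga2b went from 1.51 to 19.3 CPM (3.67 [3.07 to 4.35]), Cd44 from 9.47 to 206.4 CPM (4.45 [4.20 to 4.70]) and Procr from 27.4 to 233.3 CPM (3.09 [2.94 to 3.23]). From ACE+ GFI1- to ACE+ GFI1+ cells Procr alone counted as 2-fold apart (529.1 against 233.3 CPM, 1.18 [1.15 to 1.21]), with 11.3% of 10986 genes this far apart. Cd44 was read in 42.9%, 69% and 97.4% of the cells of the 3 sorts, and Itga2b in 21.4%, 17.2% and 53.8%, so that the share with Itga2b did not follow its sum in the first step. The ACE- sum rests on 14 cells.

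HE of the Runx1b line and HE of the Gfi1/Gfi1b line, both heterozygous at E10.5, were not 2-fold apart in any member that reached 5 CPM, with 17.8% of 11326 genes this far apart. Those members were Itga2b, Cd44, Spn, Procr, Cd34 and Cd93. Ptprc, Ly6a and Cd48 were more than 2-fold apart but under 5 CPM in both sums. Itga2b was at 23.7 CPM in the Runx1b line and 14.4 CPM in the Gfi1/Gfi1b line (0.72 [0.62 to 0.83]), and its log2 ratio without the highest cell of each group was -0.31. Procr was at 122.99 and 208.1 CPM (-0.76 [-0.79 to -0.73]).

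Over the 19 sums the members were compared by Pearson correlations of log2(CPM + 1), with no test, over sums that share reporter lines and differ in depth. The 5 highest were Cd34 with Cd93 (0.81), Ptprc with Spn (0.70), Itga2b with Spn (0.66), Ptprc with Cd48 (0.65) and Spn with Ly6a (0.61), and the lowest was Ptprc with Cd93 (-0.71). Among 12520 genes compared, the most alike were Nckap1l for Ptprc (0.94), Tspo for Itga2b (0.81), Emb for Cd44 (0.96), Hlf for Spn (0.94), Gata2 for Procr (0.93), Afap1l1 for Cd34 (0.95), Card10 for Cd93 (0.92) and F13a1 for Cd48 (0.97). For Ly6a and Thy1 they were Rab10os (0.83) and Pde4c (0.76), at levels too low to order the sums well.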

How the data were processed

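The deposited values are raw counts of reads per gene and cell, made by the authors without normalization, in a table of 1288 cells and a table of 169 cells from the ACE sorts. The submitters' processing notes name bcl2fastq, STAR 2.4.2a, HTSeq 0.6.1p1, R 3.6.2 and the build GRCm38. The sources used here give no strand setting, annotation release or cell filter, and positions of genes are from a GENCODE annotation of GRCm38. Of 49585 genes in the ACE table the 36131 held whole by both tables were used, which left out 10.1% of its reads. Its 92 spike-in rows had 0 reads. Every cell was kept, and no doublet caller was run on the sorted wells. Cells of the larger table were matched to their labels by column name, and no 2 cells had identical counts.

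Each group's cells were added up to 1 sum of reads, scaled per 1000000 reads (CPM), which measures shares of RNA and not RNA per cell. Shares of cells have Clopper-Pearson and sums Poisson intervals, exact at 95%, and a count of 0 allows 3. HE against Endo (8 sums, 4 sets as a block) and the gates of the Gfi1/Gfi1b line (10 sums, 3 sets as a block) were tested with edgeR 4.0.16 in R 4.3.3 (filterByExpr, TMM, quasi-likelihood F-test, Benjamini-Hochberg over all genes tested, threshold 0.05). Nothing states that the sets are separate embryos, so p-values measure only the spread between these sums. Comparisons of 1 sum with 1 were not tested, and sums under 3 reads were set to 3 in their ratios. Alternatives were DESeq2 1.42.0, its size factors in edgeR, no filter on low counts, cells thinned to 100000 reads, cells under 1% globin, cells with 10 endothelial markers, means of per-cell CPM, no replicate block, other handling of conflicting or misspelt labels (13 titles) and leaving out each set. Added after the data were seen were leaving out the E11.5 IAHC sum, leaving out the highest cell of a group, and keeping cells with under 6 of 12 macrophage markers. The fitting code was tested on simulated data.

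All 10 members are named, of other lists at most 4 genes past the threshold, and for likeness the genes with the highest correlation. The members and lists were chosen with earlier results of these data known. Python 3.11.15, numpy 2.4.6, pandas 2.3.3 and scipy 1.17.1 were used.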

Additional observations from a re-analysis of the deposited data

Results flagged for a closer look

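In 18 groups of 4 or more sums of a gate, the highest and lowest sum of each member were compared with the rest, and chance alone would set apart about 1 in 20 such groups. Spn at 4.07 CPM, Ly6a at 1.08 CPM and Thy1 at 2.81 CPM were each highest in the Runx1b Endo sum, far from the other Endo sums of the 4 fitted sets. All 120 Spn reads and all 32 Ly6a reads came from 1 of 53 cells each, and the 83 Thy1 reads from 5 cells. Among the HE sums of these sets, Cd48 was highest at 0.242 CPM in Runx1b HE, far from the others, with all 38 reads in 1 cell (0.382% of cells). Sums outside the 4 fitted sets were not part of this check. Titled KO HE had Cd48 at 0.355 CPM, above the flagged value. The Endo set whose stage labels differ had Spn at 3.51 CPM and Thy1 at 1.75 CPM, near the flagged values, and Ly6a at 0.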

How the results depend on the processing

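For HE against Endo across sort sets, the 2 calls among the members became 4 with DESeq2, 1 without the filter on low counts and 0 to 1 when a set was left out. The share of tested genes called, 1.40%, became 3.47% in cells with 10 endothelial markers, 6.67% after thinning to 100000 reads, 17.8% with DESeq2, 3.04% with no replicate block, 0.599% without the filter, and 0% to 0.895% when a set was left out (0.895% without E11.5, 0.139% without E10.5, 0.0207% without Runx1b, 0% without ACE). Without that block Cd44 and Procr were both still called (adjusted p 0.00732 and 0.0226, edgeR), and with it the sets differ in line, stage and sort at the same time. In the Gfi1/Gfi1b line, the 0% called for HE against Endo became 0.0119% in cells under 1% globin, 0.157% after thinning, 7.55% with DESeq2 and 0.0528% with no replicate block, and the 0 members became 1 after thinning and 5 with DESeq2. For EHT against HE it became 0.0373% after thinning, 0.249% without the E11.5 IAHC sum, 0% to 0.281% when a set was left out, and 6.58% with DESeq2, which called 2 members. For IAHC against EHT it became 3.84% with DESeq2. The cause of these differences was not tested.

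Of the members 2-fold apart, homozygous against heterozygous Gfi1/Gfi1b HE had 2 instead of 4 without the highest cell of each group. Titled KO against heterozygous Runx1b HE had 2 instead of 1 in cells under 1% globin, and in cells with 10 endothelial markers the 1 member was Itga2b and no longer Cd44. Homozygous against heterozygous Mes had 3 instead of 5 in cells with under 6 macrophage markers, where the share of heterozygous Mes cells with Ptprc was 0%. IAHC of E11.5 against E10.5 had 2 lower members, and instead 2 higher and 2 lower (4) after thinning and by means of per-cell CPM, 4 lower without the highest cells, and 3 higher and 0 lower in cells under 1% globin or with 10 endothelial markers, which turned the direction of the count, and its Cd44 ratio of -1.32 turned to 0.31 in cells under 1% globin and to 0.13 in cells with 10 endothelial markers. ACE+ GFI1+ against ACE+ GFI1- had 2 instead of 1 by means of per-cell CPM. Runx1b against Gfi1/Gfi1b HE had 2 instead of 0 in cells under 1% globin and 1 with under 6 macrophage markers.

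The fits have 3 and 4 residual degrees of freedom, the 8 other comparisons have 1 sum a side, and counts without molecular identifiers carry PCR copies. A share of cells with a read falls with depth, and for groups such as ACE- GFI1- with 14 cells its interval is wide.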
